A study of Mus musculus with 36 samples.

Results

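Gene expression in the tibialis anterior of transgenic mice was compared with that in their extensor digitorum longus, and the arrays were chosen by their labels alone: 4 transgenic tibialis anterior arrays and 3 transgenic extensor digitorum longus arrays, 7 of the 36 in the series. The series is a mouse model of nemaline myopathy, a congenital muscle disease named for rod-shaped bodies in the fibres, profiled on Affymetrix MG_U74Av2 arrays in 5 skeletal muscles. The transgenic mice carry alpha tropomyosin slow, the product of Tpm3; neither the promoter, the form of the transgene nor the strain is given in the sources used here. The tibialis anterior arrays came from 2 samples at 7 months and 2 at 10 months of age, and the extensor digitorum longus arrays from 2 at 7 months and 1 at 10 months. The same muscles of wild-type mice at the same ages, 4 and 3 arrays, served as the background genotype. Each array was hybridized with snap-frozen muscle RNA pooled from 3 to 5 mice per the labels, so the spread between arrays is a spread between pools, and in such bulk RNA fewer cells of a type and less RNA per cell cannot be told apart. The submitters state that the raw scan file of the 10-month transgenic extensor digitorum longus array is about 75% complete; its deposited column of values is not.

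Both muscles lie at the front of the lower leg and are known in mice as fast muscles. A fibre's speed and endurance follow from the isoforms it makes: slow fibres use Myh7 (beta myosin heavy chain), Myl2 (the slow and cardiac regulatory light chain), the slow troponins Tnnt1, Tnni1 and Tnnc1, Tpm3, and the calcium pump SERCA2 (Atp2a2), and fast fibres use another gene for each of these parts. Tropomyosin lies along the thin filament and, with the troponins, gates the access of myosin to actin.

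The slow-fibre genes lower in tibialis anterior were Myl2, Tnni1, Tnnt1, Tpm3 and Atp2a2. For the 4 of these 5 genes matched in the promoter table, which moved together with Atp2a2, the 250 bases before annotated starts are printed 5′ to 3′ on the gene's strand, from RefSeq on GRCm38.p6. Of 2 overlapping windows of Tnni1 only the more upstream is printed. The windows are chr5:122092474-122092723 and chr5:122092939-122093188 for the first and second start of Myl2, chr1:135799171-135799420 for Tnni1 and chr3:90072401-90072650 and chr3:90079271-90079520 for Tpm3, all on the plus strand, and chr7:4515976-4516225 on the minus strand for Tnnt1. Capitals mark matches to the E-box CANNTG, the core bound by myogenic basic helix-loop-helix factors.
Myl2 start 1: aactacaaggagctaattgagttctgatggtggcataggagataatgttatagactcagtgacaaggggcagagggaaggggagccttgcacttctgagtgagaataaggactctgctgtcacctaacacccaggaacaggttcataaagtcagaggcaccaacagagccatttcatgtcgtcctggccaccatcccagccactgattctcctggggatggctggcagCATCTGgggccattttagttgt
Myl2 start 2: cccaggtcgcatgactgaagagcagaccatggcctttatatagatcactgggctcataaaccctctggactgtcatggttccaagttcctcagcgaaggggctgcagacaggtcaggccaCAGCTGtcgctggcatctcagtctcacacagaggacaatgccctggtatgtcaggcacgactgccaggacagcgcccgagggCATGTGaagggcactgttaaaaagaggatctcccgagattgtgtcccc
Tnni1: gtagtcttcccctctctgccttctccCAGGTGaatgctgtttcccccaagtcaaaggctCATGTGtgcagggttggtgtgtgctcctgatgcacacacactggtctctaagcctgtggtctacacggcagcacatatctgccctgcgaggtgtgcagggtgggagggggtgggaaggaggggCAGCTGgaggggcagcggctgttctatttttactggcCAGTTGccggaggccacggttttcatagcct
Tnnt1: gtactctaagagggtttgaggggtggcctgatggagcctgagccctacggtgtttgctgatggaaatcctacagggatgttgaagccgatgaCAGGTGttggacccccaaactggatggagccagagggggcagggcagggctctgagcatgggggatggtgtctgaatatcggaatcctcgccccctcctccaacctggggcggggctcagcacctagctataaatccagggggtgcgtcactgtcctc
Tpm3 start 1: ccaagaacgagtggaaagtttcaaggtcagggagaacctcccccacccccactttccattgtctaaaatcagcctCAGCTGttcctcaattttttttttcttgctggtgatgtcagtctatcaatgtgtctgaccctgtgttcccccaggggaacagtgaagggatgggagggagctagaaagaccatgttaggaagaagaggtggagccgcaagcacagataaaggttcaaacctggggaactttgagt
Tpm3 start 2: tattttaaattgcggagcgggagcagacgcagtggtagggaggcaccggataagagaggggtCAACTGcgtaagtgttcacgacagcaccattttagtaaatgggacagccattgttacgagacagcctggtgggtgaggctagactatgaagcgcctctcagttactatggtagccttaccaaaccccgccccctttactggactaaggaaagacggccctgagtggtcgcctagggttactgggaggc
An E-box was found in 6 of these 6 windows, and it is present in 66.2% of all 32526 windows of the same length. Tnni1 has 4 matches, from 31 to 224 bases before its start. The M-CAT motif CATTCC, held by 12.6% of all windows, the MEF2 motif, held by 2.89%, and the CArG box, held by 1.48%, had 0 matches on either strand in the 6 windows. A match to the pattern CANNTG on either strand is also a match on the other, and no matches of different motifs overlapped.

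Signals are in arbitrary units, scaled so that the trimmed mean of every array is 500. They compare arrays for 1 probe set and not genes with each other. Differences are log2(signal + 50), tibialis anterior minus extensor digitorum longus, at the average of both ages, with standard errors and Benjamini-Hochberg adjusted p-values from limma. At an adjusted p under 0.05, 16 of 9322 probe sets were called (0.172%), 4 higher and 12 lower in transgenic tibialis anterior. Counted by the brightest probe set of each of 6793 genes, 3 were higher (0.0442%) and 8 lower (0.118%). At an unadjusted p under 0.05 there were 145 higher genes (2.13%) and 137 lower genes (2.02%), and the median gene differed by 0.02. The 4 tibialis anterior arrays lay above all 3 extensor digitorum longus arrays in 269 genes (3.96%) and below them in 192 (2.83%).

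Transgenic tibialis anterior had less mRNA of the slow thin filament, of the slow regulatory light chain and of the slow calcium pump than transgenic extensor digitorum longus. Of the 12 slow-fibre genes tested, 5 were called lower and 0 higher. Their median difference was -1.67 against 0.02 over all genes, and 6 lay without overlap below, against 2.83% of all genes. Atp2a2, the pump that returns calcium to the sarcoplasmic reticulum in slow and cardiac fibres, read 680, 413, 962 and 680 in the tibialis anterior arrays (7-month replicates 1 and 2, then 10-month replicates 1 and 2) and 3205, 2673 and 5551 in the extensor digitorum longus arrays (7-month replicates 1 and 2, then 10 months). Every tibialis anterior array lay below every extensor digitorum longus array, by 5.53-fold in the model (-2.47 ± 0.30, adjusted p = 6.03e-05). Its probe set carries the suffix _s_at, which marks sequence shared with related transcripts.

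Tnnt1, the troponin that fixes the slow complex to tropomyosin, read 2462, 3986, 5234 and 3049 in tibialis anterior and 10175, 25461 and 19348 in extensor digitorum longus. The groups did not overlap, and the difference was 4.82-fold (-2.27 ± 0.29, adjusted p = 7.20e-05). A further probe set of Tnnt1 differed by -1.72 (adjusted p = 0.00258), while the brightest one is an _s_at set. Tnni1, the inhibitory subunit of the slow troponin complex, read 1736, 2877, 2943 and 1875 against 4064, 13274 and 9749. All 4 tibialis anterior arrays were below the lowest extensor digitorum longus array (-1.83 ± 0.29, adjusted p = 0.00258).

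Myl2 read 4731, 5822, 7316 and 4020 in tibialis anterior and 15555, 17815 and 17203 in extensor digitorum longus. The extensor digitorum longus arrays were close to each other here, and the difference was 3.16-fold (-1.66 ± 0.27, adjusted p = 0.00306). Tpm3, the gene of the transgene's protein, read 1607, 2165, 4182 and 2538 against 4634, 18429 and 12798. The nearest arrays of the 2 muscles, the 10-month replicate 1 of tibialis anterior and the 7-month replicate 1 of extensor digitorum longus, were close, and the difference was 4.21-fold (-2.07 ± 0.41, adjusted p = 0.0163). The sources used here do not say whether this probe set reads transcripts of the transgene.

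**Figure D1:**
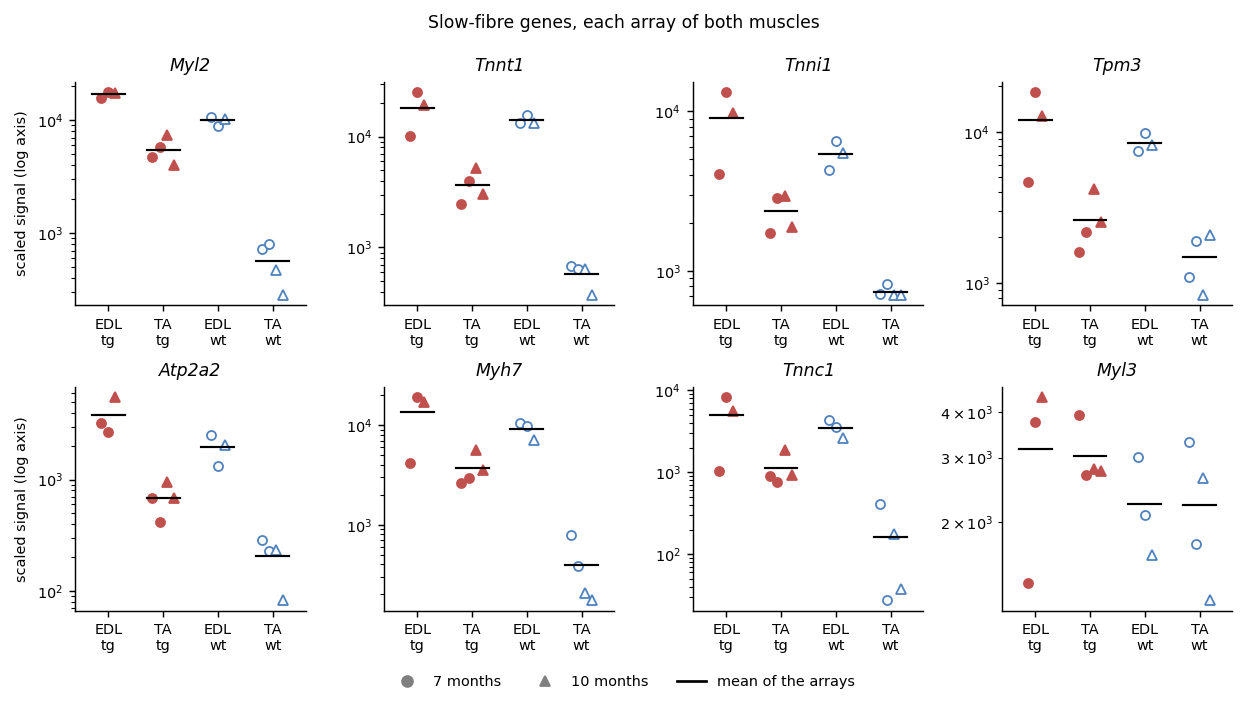
Scaled signal (log axis) of 8 slow-fibre genes on each of the 14 arrays of both muscles: filled red points are transgenic (tg), open blue points wild type (wt), circles 7 months, triangles 10 months and black lines group means. In Myl2, Tnnt1, Tnni1, Tpm3 and Atp2a2 the 4 transgenic tibialis anterior (TA) arrays lie below all 3 transgenic extensor digitorum longus (EDL) arrays, in Myh7, Tnnc1 and Myl3 they do not, and the 7-month replicate 1 EDL array is the lowest of its group in all but Atp2a2.

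The other slow genes were not called. Myh7 read 2654, 2933, 5660 and 3564 in tibialis anterior and 4212, 19256 and 17170 in extensor digitorum longus. The 10-month replicate 1 tibialis anterior array exceeded the lowest extensor digitorum longus array, and the difference of -1.68 ± 0.41 had an adjusted p of 0.151. A second tested Myh7 probe set was dim, with a mean signal of 89 over the 36 arrays, and differed by -0.47. Both carry the suffix _f_at, which marks sets that read members of a gene family. Tnnc1, the calcium-binding slow and cardiac troponin, differed by -1.79 (adjusted p = 0.583), with the same 7-month replicate 1 array at 1047 beside 8320 and 5636. Myl3, the slow essential light chain, differed by 0.06, Csrp3, a Z-disc protein, by -0.14, Casq2, the slow and cardiac calsequestrin, by 0.48, Sln, an inhibitor of the calcium pump, by 0.21 and Myl6b by -0.89, each with an adjusted p of 1. Of these, Myl6b alone lay without overlap below extensor digitorum longus.

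The 7-month replicate 1 array of extensor digitorum longus stood apart in several slow genes, such as Myh7 and Tnnc1, but not in Myl2 or Atp2a2. The calls of the slow genes depended on which extensor digitorum longus arrays were used. Without the 7-month replicate 1 array, 7 of the 12 slow genes were called lower, Myh7 among them (-2.34, adjusted p = 0.00070) and Tnnc1 (-2.65, adjusted p = 0.009). Without the 10-month array, whose raw file is incomplete, 0 of the slow genes and 0 of all probe sets were called (347 at an unadjusted p under 0.05), and the age effect of that muscle then rested on 1 wild-type array; 6 of the 12 slow genes kept an unadjusted p under 0.05. Without that array and without an age effect in the model, 9 probe sets were called, 8 of them among the 16, and 4 slow genes were lower: Tnnt1 (-2.17, adjusted p = 0.00049), Atp2a2 (-2.07, adjusted p = 0.0019), Tnni1 (-1.66, adjusted p = 0.016) and Myl2 (-1.63, adjusted p = 0.016), with Tpm3 at -1.89 (adjusted p = 0.10). Without any 1 of the other arrays the count of slow genes lay between 4 and 6; the missing call was that of Tpm3 without the 7-month replicate 2 array of extensor digitorum longus (adjusted p = 0.31), without either 7-month tibialis anterior array (adjusted p = 0.11 and 0.069) or without the 10-month replicate 2 array of that muscle (adjusted p = 0.072). The count of all probe sets fell to 8 without the 7-month replicate 2 array of extensor digitorum longus and to 9 without that of tibialis anterior.

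Within 7 months alone, Atp2a2 differed by -2.36 and Tnnt1 by -2.34 (adjusted p = 0.02 for each), and they were the 2 probe sets called. Within 10 months, where extensor digitorum longus has 1 array whose spread is taken from the other groups, Atp2a2 differed by -2.70 (adjusted p = 0.056), Tnnt1 by -2.26, Tnni1 by -2.03, Tpm3 by -1.96 and Myl2 by -1.66, and 0 probe sets were called (263 at an unadjusted p under 0.05). The size of these differences was close at both ages while the calls were not.

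The muscles were compared in the wild type in the same model. The group means come from different arrays, but both comparisons share the age effect of each muscle and the estimate of the spread. The 2 lists of calls are therefore not independent. There 20 of 9322 probe sets were called (0.215%), and of these 14 were among the 16 transgenic calls, which is 87.5% of the transgenic and 70% of the wild-type list; all 16 transgenic calls had the same sign in the wild type, as had 64.8% of all probe sets. Among genes, 4 were higher (0.0589%) and 12 lower (0.177%) in wild-type tibialis anterior. The slow genes were again lower, 7 of 12 called, with a median of -2.71. Myl2 read 723, 796, 474 and 283 in wild-type tibialis anterior and 10582, 8931 and 10266 in wild-type extensor digitorum longus, a difference of 17.3-fold (-4.11, adjusted p = 4.7e-11). The brightest probe set of Tnnt1 differed by 23.0-fold in the wild type (-4.52, adjusted p = 3.03e-11), while its other called probe set differed by -1.50 (adjusted p = 0.00826), with means of 411 and 1157. Myh7 differed by -4.61 (adjusted p = 2.74e-08), Tnnc1 by -4.45 (adjusted p = 1.24e-05), Atp2a2 by -3.10, Tnni1 by -2.82 and Tpm3 by -2.60. The value of Myh7 is that of its brightest set, and its dim second set differed by -0.27, with means of 60 and 86. The wild-type count was 66 with the replicate block and 10 without the 10-month wild-type array of extensor digitorum longus.

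On the log2 scale, the gap between the muscles was smaller in the transgenic mice for Myl2 and for 1 of the 2 tested probe sets of Tnnt1. In signal units it was not smaller. Mean Myl2 was 5472 in tibialis anterior and 16858 in extensor digitorum longus of transgenic mice, and 569 and 9926 in the wild type. The _s_at set of Tnnt1 had 3683 and 18328 in transgenic mice, and 580 and 14062 in the wild type. The test of the difference of differences called 2 of 9322 probe sets, both positive (0.0215%): Myl2, by 2.45 ± 0.38 (adjusted p = 0.00559), and the _s_at set of Tnnt1, by 2.25 ± 0.40 (adjusted p = 0.0236). The other Tnnt1 set had the opposite sign, -0.23 (adjusted p = 1), so the probe sets of this gene disagree and its difference between genotypes is uncertain. Myh7 had the largest value of the slow genes, 2.94 ± 0.57, with an adjusted p of 0.058 (0.033 with the replicate block). That value is from its brightest probe set. Its dim second set had a muscle difference of -0.47 in transgenic mice and -0.27 in the wild type. The probe sets of Myh7 thus disagree as well, and its difference between genotypes is uncertain. The difference of Myl2 stayed between 2.18 and 2.61 and called with any 1 of the 14 arrays left out; the _s_at set of Tnnt1 lost its call with the omission of 8 of the 14 arrays, with an adjusted p of 0.22 without the 7-month replicate 1 transgenic extensor digitorum longus array. Myh7 passed the threshold in 5 of the 14 omissions.

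**Figure D2:**
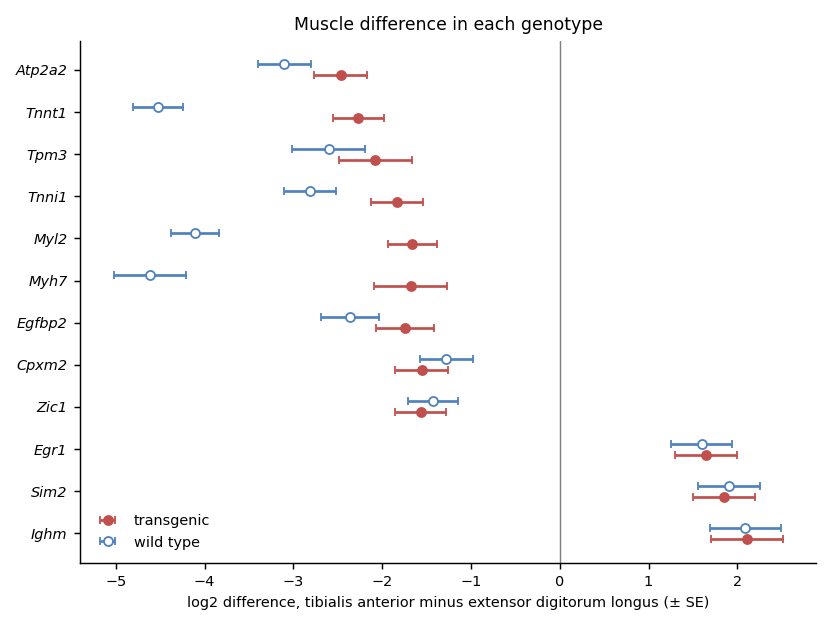
Log2 difference of tibialis anterior minus extensor digitorum longus (x axis, bars are standard errors of the fit) for the 11 genes called in the transgenic mice and Myh7, each by its brightest probe set; filled red points are transgenic (4 and 3 arrays), open blue points wild type (4 and 3 arrays). The wild-type difference of Myl2 (-4.11), Tnnt1 (-4.52) and Myh7 (-4.61) lies well outside that of the transgenic mice (-1.66, -2.27 and -1.68). The second probe sets, not plotted, have -1.50 and -1.72 for Tnnt1 and, at low signal, -0.27 and -0.47 for Myh7 (wild type, then transgenic). The points of Ighm, Sim2, Egr1, Zic1 and Cpxm2 nearly coincide.

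The genotype contrasts of each muscle use the same arrays. In tibialis anterior 13 genes were higher in transgenic than in wild-type mice (0.191%), among them Myl2 (3.21, adjusted p = 3.53e-09), Atp2a2 (1.54, adjusted p = 0.00606), Myh7 (3.24, adjusted p = 5.48e-06), Tnnt1 (2.54, adjusted p = 7.08e-07) and Tnni1 (1.57, adjusted p = 0.00409). The value of Tnnt1 is that of its _s_at set, and the other set had 0.31, with means of 513 and 411. The value of Myh7 is that of its brightest set, and its dim second set had means of 52 in transgenic and 60 in wild-type tibialis anterior. With the replicate block the calls in tibialis anterior went from 14 to 27 probe sets. In extensor digitorum longus 1 gene was higher (0.0147%). The same 5 slow genes had values of 0.76, 0.91, 0.30, 0.29 and 0.59, in that order, with adjusted p-values of 0.57 or more. In the same limma fit Myl2 and Atp2a2 had unadjusted p-values of 0.0128 and 0.00707 there, and their transgenic arrays lay above all wild-type arrays. Myh7, Tnnt1 and Tnni1 had unadjusted p-values of 0.0655 or more. The missing calls in this muscle do not show that these genes were unchanged. Tpm3 itself had a transgenic minus wild-type value of 0.82 in tibialis anterior (adjusted p = 0.777) and of 0.29 in extensor digitorum longus (adjusted p = 0.959). Neither passed the test after adjustment, and the unadjusted p-values of the same limma fit were 0.0368 and 0.508, in that order. The missing calls do not show that Tpm3 was unchanged.

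Set beside the other transgenic muscles, tibialis anterior had the lowest mean signal of the 5 in the brightest probe set of each of these slow genes. Extensor digitorum longus had the next. Mean Myl2 signal was 5472 ± 1436 (SD, n = 4) in tibialis anterior, 16858 ± 1169 (n = 3) in extensor digitorum longus, 20647 ± 3696 (n = 4) in gastrocnemius, 22336 ± 3446 (n = 3) in plantaris and 23829 ± 7963 (n = 4) in diaphragm. The ranges of the last 3 muscles overlapped each other, those of gastrocnemius and diaphragm also reached into that of extensor digitorum longus, and tibialis anterior lay below all of them. Mean Myh7 signal was 3703 in tibialis anterior, 13546 in extensor digitorum longus, 19324 in gastrocnemius, 19870 in diaphragm and 27100 in plantaris, and the range of extensor digitorum longus, 4212 to 19256, overlapped those of gastrocnemius and diaphragm. In the wild type Myh7 was 390 in tibialis anterior and 9191 in extensor digitorum longus, and extensor digitorum longus is known in mice to hold very few slow fibres; what tissue next to the muscle was taken with it is not given in the labels.

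The fast-fibre genes did not separate the muscles in the test. Of 13 tested, 0 were called in either direction and 1 was higher at an unadjusted p under 0.05, against 2.13% of all genes. All 13 had a positive sign, against 3589 of all 6793 genes, with a median of 0.32 against 0.02 over all genes. Without overlap, 7 lay above extensor digitorum longus, against 3.96% of all genes. Myh4, the fastest (type IIB) myosin heavy chain, read 35649, 52089, 34292 and 32935 in tibialis anterior and 24993, 31249 and 29494 in extensor digitorum longus (0.45 ± 0.28, adjusted p = 1). The groups did not overlap but were close. Myh1, the type IIX heavy chain, differed by 0.19 ± 0.20 and Actn3, the fast Z-disc actinin, by 0.56 (unadjusted p = 0.0336), while Pvalb, a fast calcium buffer, differed by 0.40, Atp2a1, the fast calcium pump, by 0.42 and Myl1, the fast essential light chain, by 0.43. Myh2 did not reach the signal required for testing.

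Of the tropomyosins, 1 of 4 tested was called, Tpm3. Tpm2 (beta tropomyosin, made in slow and fast fibres) differed by -0.11 ± 0.18, Tpm1 (alpha tropomyosin fast) by -0.09 ± 0.21 and Tpm4, a cytoskeletal form, by -0.24 ± 0.22, each with an adjusted p of 1. Mean Tpm2 signal was 16210 in tibialis anterior and 17677 in extensor digitorum longus. The 12 developmental and neonatal sarcomere genes had a median of -0.03 and 0 calls; Actc1, cardiac actin, was the brightest (0.76, adjusted p = 0.994) and Chrna1, the acetylcholine receptor subunit, had the smallest p (-0.93, adjusted p = 0.25).

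The other genes lower in tibialis anterior were not of the slow list. Zic1, a zinc finger transcription factor of the developing nervous system and somites, read 20, 8, 13 and 11 in tibialis anterior and 80, 204 and 180 in extensor digitorum longus. All 4 tibialis anterior values are near the floor of the array, so the fitted 2.96-fold (-1.57 ± 0.28, adjusted p = 0.00882) depends on the added 50. Among transgenic muscles its mean was 259 in plantaris, 155 in extensor digitorum longus and between 11 and 15 in the other 3. Cpxm2, a secreted member of the carboxypeptidase family, read 78, 241, 316 and 218 against 676, 664 and 654. The extensor digitorum longus arrays were almost equal, and both probe sets were called (-1.55 and -1.65, adjusted p = 0.0127 each).

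Egfbp2, a glandular kallikrein, read 99, 55, 59 and 125 in tibialis anterior and 363, 358 and 413 in extensor digitorum longus (-1.74 ± 0.33, adjusted p = 0.0119). A second kallikrein probe set, annotated to several kallikrein symbols, differed by -1.71 (adjusted p = 0.00815). Both are _f_at sets, which read members of a gene family, so which kallikrein was measured is uncertain. Of 3 probe sets of Chrne, the adult-type acetylcholine receptor subunit, chosen after its values were seen, 1 was called (-1.80, adjusted p = 0.0445), its brightest set was not (-0.12), and the call was lost without any 1 of 6 of the 7 arrays (adjusted p from 0.057 to 0.38). Of these genes, Zic1 lost its call without the 10-month (-0.90, adjusted p = 1) or the 7-month replicate 2 (adjusted p = 0.091) array of extensor digitorum longus, Cpxm2 without any extensor digitorum longus array or 2 of the tibialis anterior arrays (adjusted p from 0.057 to 0.39) and Egfbp2 without any extensor digitorum longus array or 2 of the tibialis anterior arrays (adjusted p from 0.059 to 0.39).

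The 3 genes higher in transgenic tibialis anterior were Ighm, Sim2 and Egr1. Ighm, the constant part of the heavy chain of immunoglobulin M, read 1269, 2302, 2178 and 1842 in tibialis anterior and 333, 429 and 389 in extensor digitorum longus. The lowest tibialis anterior array was well above the highest of the other muscle, by 4.32-fold in the model (2.11 ± 0.40, adjusted p = 0.0127), and a second probe set was called as well (2.31, adjusted p = 0.00772). In transgenic gastrocnemius, diaphragm and plantaris the brightest set had means of 2590, 2147 and 569, beside 1898 in tibialis anterior. The second set had 1376, 367 and 266 there, beside 1055 in tibialis anterior. The other 6 tested probe sets annotated to Ighm were dim and differed by -0.15 to 0.67, with adjusted p-values of 1. Of the 7 lymphocyte markers tested it was the only 1 called; Cd79a, a part of the B cell receptor, differed by -0.55, Jchain, the joining chain of secreted immunoglobulin M, by 0.37 and Cd79b by 0.29. The summed signal of the 15 lymphocyte markers on the array was 2379 to 4124 in tibialis anterior and 1570 to 1926 in extensor digitorum longus, a sum in which Ighm is counted, and the part of blood or lymphoid cells in the result was not tested.

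Sim2, a transcription factor of the basic helix-loop-helix and PAS family, read 296, 368, 276 and 330 in tibialis anterior and 175, 8 and 36 in extensor digitorum longus. The extensor digitorum longus values were scattered and all lower (1.85 ± 0.35, adjusted p = 0.0119). Its mean in gastrocnemius, 312, was close to the 318 of tibialis anterior, while plantaris had 167 and diaphragm 29. Its probe set is an _s_at set.

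Egr1, an immediate early transcription factor that is also active in tendon cells, read 784, 786, 1441 and 672 in tibialis anterior and 296, 295 and 260 in extensor digitorum longus (1.65 ± 0.35, adjusted p = 0.0388). The groups did not overlap. Fos, the partner of Jun in the AP-1 factor, read 1970, 1967, 2407 and 2619 against 385, 665 and 258; chosen after its values were seen, it differed by 2.48 ± 0.55, with an adjusted p of 0.0594 (0.030 with the replicate block). A second, dim Fos probe set differed by 0.64, also without overlap, with means of 54.5 and 16.9, and was not called. Egr1 was the gene called of the 17 immediate early genes tested, and it is a member of the tendon list too. At an unadjusted p under 0.05, 4 of the 17 were higher and 1 lower, against 2.13% and 2.02% of all genes. Of the 17, 14 were positive, with a median of 0.23. Btg2, an antiproliferative gene, differed by 0.57, Ccn1 by 0.64 and Ccn2, both matricellular proteins, by -1.07, and Junb, Jun and Dusp1 had adjusted p-values of 1. Egr1 lost its call without any 1 of 6 of the 7 arrays (adjusted p from 0.053 to 0.31; the value was 2.33 without the 10-month array of extensor digitorum longus), Ighm without any extensor digitorum longus array or 2 of the tibialis anterior arrays (adjusted p from 0.051 to 0.79), and Sim2 without the 10-month (adjusted p = 0.79) or the 7-month replicate 2 (adjusted p = 0.19) array of extensor digitorum longus or either of 2 tibialis anterior arrays (adjusted p = 0.056 each).

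**Figure D3:**
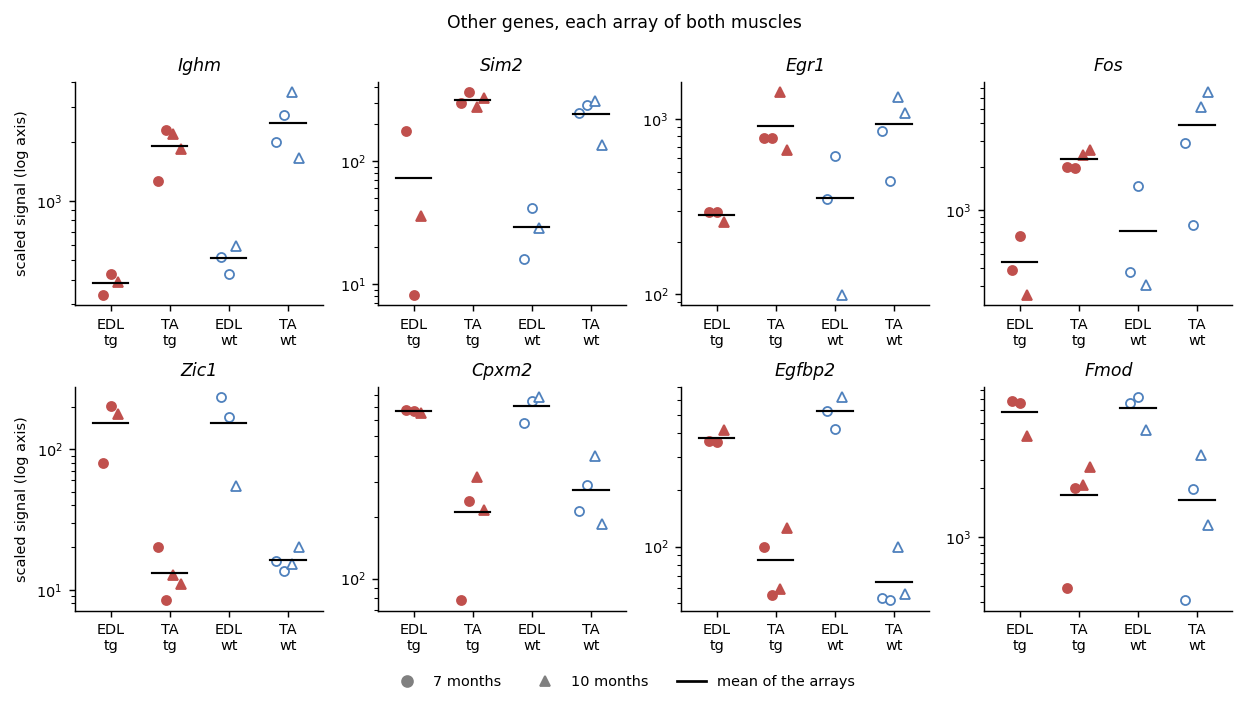
Scaled signal (log axis) of 8 further genes on the 14 arrays of both muscles, with the symbols of the plot of slow-fibre genes. Ighm, Sim2, Egr1 and Fos are higher on the 4 transgenic tibialis anterior (TA) arrays than on the 3 transgenic extensor digitorum longus (EDL) arrays, and Zic1, Cpxm2, Egfbp2 and Fmod are lower; the wild-type arrays keep these directions in the group means.

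No gene of the connective tissue lists was called lower in tibialis anterior. Of 35 extracellular matrix genes 0 were called, and the median was -0.21. At an unadjusted p under 0.05, 5 were lower in tibialis anterior, against 2.02% of all genes, and 0 higher. Of 14 tendon and cartilage markers 1 was called, Egr1, which was higher. Of these markers 8 were negative and 6 positive, with a median of -0.33. Without overlap, 5 lay below extensor digitorum longus, against 2.83% of all genes. Scx, a tendon transcription factor, differed by 0.21 and Col9a1, a cartilage collagen, by 0.42, both chosen after their values were seen. Fmod, fibromodulin of tendon, read 492, 2020, 2098 and 2704 against 6851, 6620 and 4206, without overlap (-1.75, adjusted p = 0.458). Chad, chondroadherin of cartilage and tendon, differed by -1.49 (adjusted p = 0.633, and 0.0064 with the replicate block), and Ogn, the small proteoglycan osteoglycin, by -1.24. Summed over 17 markers on the array, the tendon list read 4369 to 11703 in tibialis anterior and 11929 to 16943 in extensor digitorum longus in the transgenic mice, and 5813 to 12663 and 12965 to 19076 in the wild type. Fmod, Cilp2 and Chad are counted in this sum, with means of 5892, 3339 and 1822 in transgenic extensor digitorum longus, so it follows a few bright probe sets. The part of tendon in the differences between the muscles was not tested.

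**Figure D4:**
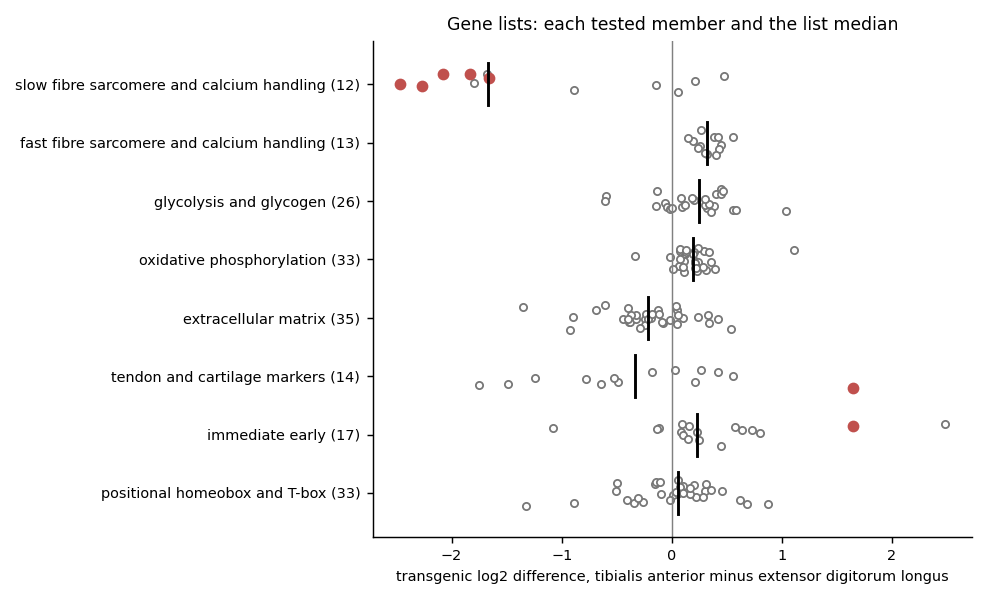
Transgenic log2 difference of tibialis anterior minus extensor digitorum longus (x axis) for each tested member of 8 gene lists, with the number of members in parentheses; red points were called at an adjusted p under 0.05, open points were not, and black bars are list medians. Red points appear in the slow-fibre list (5, all below 0) and for Egr1, a member of 2 lists, and the medians run from -1.67 for the slow-fibre list to 0.32 for the fast-fibre list.

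No gene of the metabolic lists was called. Of 26 genes of glycolysis and glycogen use 0 were called, and the median was 0.25. At an unadjusted p under 0.05, 3 were higher and 1 lower, against 2.13% and 2.02% of all genes. Of the 26, 18 were positive, against 3589 of all 6793 genes. Without overlap, 7 lay above extensor digitorum longus, against 3.96% of all genes. Aldoa, a glycolytic aldolase, differed by 0.44, Eno3, the muscle enolase, by 0.35, Ldha, the lactate dehydrogenase of fast muscle, by 0.33, Pygm, the muscle glycogen phosphorylase, by 0.45 and Pgam2, the muscle phosphoglycerate mutase, by 0.30. Of 33 oxidative phosphorylation genes 0 were called and 2 had an unadjusted p under 0.05; 31 were positive, with a median of 0.19, among them Cyc1, the cytochrome c1 of complex III (0.36), and Cox6a2, a cytochrome oxidase subunit of muscle (0.08). Of 30 genes of the citrate cycle and fatty acid use 0 were called, also at an unadjusted p under 0.05, with a median of 0.09.

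Of 33 positional homeobox and T-box genes, which keep a record of place in the limb, 0 were called in either genotype. At an unadjusted p under 0.05, 2 were higher and 2 lower, against 2.13% and 2.02% of all genes. Hoxa7 read 66, 67, 49 and 160 in tibialis anterior and 383, 261 and 197 in extensor digitorum longus (-1.32, adjusted p = 0.566), without overlap. Hoxa11 differed by -0.89, Tbx3 by 0.88 and Hoxc4 by 0.69 and Tbx15 by -0.50. Zic1 and Sim2, which are developmental transcription factors, are outside this list.

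In the remaining lists 0 genes were called in the transgenic comparison. Over all 6793 genes tested, 145 were higher (2.13%) and 137 lower (2.02%) at an unadjusted p under 0.05. Counts at an unadjusted p under 0.05 were 0 of 15 myogenic regulators, 0 of 15 Z-disc and stretch genes, 1 of 19 excitation genes, 3 of 20 denervation and atrophy genes, 1 of 21 heat shock genes, 1 of 32 proteasome genes, 1 of 19 ribosomal protein genes, 0 of 12 clock genes and 3 of 17 cell cycle genes. For markers of other cells they were 1 of 10 for nerve and Schwann cells, 1 of 15 for endothelium, 0 of 10 for smooth muscle, 1 of 13 for adipocytes, 0 of 18 for macrophages, 0 of 4 for red cells, 0 of 18 for liver and 1 of 9 for keratinocytes. List medians in these 17 lists lay between -0.12 and 0.36. Among them Car3, a carbonic anhydrase of adipocytes that slow muscle makes in quantity, had the smallest p, read 14955 to 19540 in tibialis anterior and 5210 to 11299 in extensor digitorum longus and differed by 0.87 ± 0.20 (adjusted p = 0.104). Of the sex-linked list only Xist was tested (-0.45, adjusted p = 1).

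The arrays were alike in signal share and Gapdh ratio, but arrays with the same replicate number deviated together. These numbers were not balanced between the muscles, as extensor digitorum longus had no 10-month replicate 2 array. The main fit held no replicate term. Between 57.4 and 64.4% of probe sets reached a signal of 100 on the 7 transgenic arrays, the 3′ to 5′ ratio of Gapdh lay between 0.94 and 1.22, and arrays of different muscles correlated at 0.9305 to 0.9705, arrays of the same muscle at 0.9299 to 0.9621. The highest of these, 0.9705, joined the 7-month replicate 2 array of extensor digitorum longus and the 10-month replicate 2 array of tibialis anterior. Arrays of the 2 transgenic muscles with a recorded scan day never shared one, so within-day values could not be formed from them. With scan day as a block, all arrays with an empty record were put in 1 further level, though their days are unknown. The replicate 2 arrays of both transgenic muscles are in that level. With this block 29 probe sets were called, 11 of them among the 16, and 7 of the 12 slow genes. With the 4 arrays that have replicate number 1 alone, 11 probe sets were called, 6 of them among the 16, and 2 slow genes.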

How the data were processed

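Affymetrix MG_U74Av2 arrays of 36 muscle RNA pools (8 µg total RNA each) were used. The deposited intensity values were made by the authors with MAS5, per the submitters' processing notes; its version is not given in the sources used here. Deposited trimmed means were 1500.93 to 1501.29; each array was rescaled to a 2% trimmed mean of 500. Probe sets with a signal of 100 or more on at least 6 of 36 arrays were kept (9322 of 12488). limma 3.58.1 (R 4.3.3, trend) was fitted to log2(signal + 50) with 10 means of muscle and genotype and an age effect per muscle (21 residual degrees of freedom), and p-values were adjusted by Benjamini-Hochberg over 9322 probe sets. Genes were represented by their brightest probe set; 8308 tested probe sets have 1 symbol, 314 several and 700 none. Named by rule were called genes whose arrays did not overlap (the 12 largest in each direction), then genes with the smallest p, up to 4 called or 3 brightest members of each list, and all tropomyosin and adult myosin heavy chain genes. Actn3, Btg2, Casq2, Ccn1, Ccn2, Cd79a, Cd79b, Chad, Chrna1, Chrne, Cilp2, Col9a1, Csrp3, Dusp1, Fmod, Fos, Hoxa7, Hoxa11, Hoxc4, Jchain, Jun, Junb, Mfap5, Myl3, Myl6b, Ogn, Pgam2, Pygm, Scx, Sln, Tbx3, Tnnc1 and Vegfa were chosen after their values were seen. Members and lists were chosen with earlier results of these data known.

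Same-numbered arrays deviated together in all 15 pairs of groups of both muscles and genotypes (lowest correlation 0.17, and 0.28 to 0.36 in the 3 pairs of transgenic groups). Over all muscles, 117 of 120 pairs of groups had a correlation over 0.1. Such pairs cross genotypes and ages, so a shared number does not show that arrays came from the same mice. Replicate number also went with whether the scan record was filled or empty. A replicate block was therefore run as an alternative, for a difference by replicate number across the series whose cause was not tested. Arrays carry no count depth; their number limits precision. The code was tested on simulated data. Promoter sequences are from RefSeq.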

Additional observations from a re-analysis of the deposited data

Results flagged for a closer look

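The gap between the muscles differed between genotypes for Myl2, by 2.45 on the log2 scale, and for the _s_at probe set of Tnnt1, by 2.25; both passed the test of the difference itself. The other Tnnt1 probe set had -0.23 (adjusted p = 1).

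Among the 4 transgenic tibialis anterior arrays, 125 named genes were examined for an array far from the other 3 (by Dixon's 95% criterion), and 7 had one; chance gives about 1 in 20. The 7-month replicate 2 array was high for Myl1 (66083.2), Pvalb (58264.5) and Mdh2 (35215.2) and low for Hspb2 (4459.7). The 7-month replicate 1 array was high for Cox6a2 (31431.6) and Myl3 (3924.7) and low for C1qc (448). Myl1 and Pvalb, both fast-fibre genes, read 40317.5 to 42372.8 and 39876.6 to 42406.5 on the other arrays.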

How the results depend on the processing

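No value of a named gene changed sign past the threshold. The 16 transgenic calls became 29 with scan day as a block, 4 with only the groups compared, 2 within 7 months, and 0 within 10 months or with replicate number 2 only; leaving out 1 array gave 0 to 13. Without the 10-month transgenic extensor digitorum longus array the count was 9 with no age effect and 2 at the 7-month level. The 5 slow-fibre calls became 2 with replicate number 1 only, within 7 months, with only the groups compared or at the 7-month level without that array, and 0 within 10 months or with replicate number 2 only; leaving out 1 array gave 0 to 7. The 20 wild-type calls became 66 with the replicate block, 73 with a random block (correlation 0.28), 59 with scan day, 12 within 10 months, 11 within 7 months, 10 with only the groups compared and 5 with replicate number 2; leaving out 1 array gave 10 to 27. The 2 genotype-difference calls became 1 with a pseudocount of 200, 20 group means, no trend or array weights, and 0 with either replicate number, within either age or with only the groups compared; leaving out 1 array gave 1 to 3. The causes were not tested. The replicate block added Vegfa (1.38, adjusted p = 0.032), Mfap5 (-0.90, adjusted p = 0.039), Fos and Chad to the transgenic calls and changed no other call of that comparison. The number of arrays limits precision.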
